A study of Homo sapiens with 30 samples.

Results

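The immediate early genes followed here are EGR1, EGR2, EGR3, FOS, FOSB, FOSL1, JUN, JUNB, IER2 and DUSP1, taken by symbol from a table of 60675 gene entries. All 10 were found, and all 10 passed the filter on low counts. They were measured by RNA sequencing in SW1783, an established human astrocytoma cell line, in 30 libraries of cells kept for 24 h in one of 4 herbal decoction extracts or in DMSO alone, the vehicle. The extracts were made with ethanol from Soshiho-tang and Yijin-tang (3 libraries at each concentration), Okbyeongpung-san (2 at each) and Soyo-san (1 at each), each at 20, 100 and 500 µg/mL, and 3 libraries held the vehicle. Nothing in the labels says that replicate libraries are separate cultures. A p-value here only sets a difference against how much these libraries vary, in part perhaps for technical reasons. The sample labels and the series text give different DMSO concentrations, and the difference could not be settled.

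Immediate early genes are switched on within minutes of a growth factor, serum or stress signal, without new protein synthesis, and most of their messages are short-lived. The signal reaches them mainly through MAP kinases, which act on serum response factor with its ternary complex partners and on CREB and related factors at the promoters. FOS and JUN proteins pair to form AP-1, EGR proteins are zinc finger factors that bind GC-rich elements, and DUSP1 is a phosphatase that switches MAP kinases off again. In glial cells they follow growth factors, injury and stress, and a measurement at 24 h reads a sustained level, not the first wave after a stimulus.

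Promoter sequences are shown for the 2 members that carry the main patterns below: EGR1, set apart from vehicle in every extract library, and DUSP1, higher at 500 than at 20 µg/mL in all 3 extracts tested. Both are the 250 bases before the RefSeq start (GRCh38.p14), at chr5:138465229-138465478 on the plus strand for EGR1 and chr5:172771196-172771445 on the minus strand for DUSP1. Capitals mark the CArG box, which serum response factor binds, and TGACG on either strand, the core that CREB and related factors bind.
EGR1: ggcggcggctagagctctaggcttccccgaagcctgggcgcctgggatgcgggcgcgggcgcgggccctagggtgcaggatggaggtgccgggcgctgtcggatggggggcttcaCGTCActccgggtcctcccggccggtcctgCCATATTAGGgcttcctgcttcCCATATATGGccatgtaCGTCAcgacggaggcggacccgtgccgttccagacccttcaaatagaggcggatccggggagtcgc
DUSP1: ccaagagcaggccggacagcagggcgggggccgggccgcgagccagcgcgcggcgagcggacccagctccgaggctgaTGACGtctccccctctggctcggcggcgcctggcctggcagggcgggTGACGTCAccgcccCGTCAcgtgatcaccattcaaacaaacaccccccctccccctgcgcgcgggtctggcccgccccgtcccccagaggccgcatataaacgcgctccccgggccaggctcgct
The EGR1 window held 2 CArG boxes, a motif found on either strand in 1.16% of 35116 RefSeq promoter windows of the same length. It also held 2 TGACG cores and 1 match to GCGNGGGCG, the element that EGR proteins bind, which 8.41% of windows hold. DUSP1 held 4 TGACG cores, of which 2 overlap in a full TGACGTCA (1.65% of windows), and a TATAAA (10.7% of windows). Of the 8 members read, all 8 held at least 1 TGACG in a window, against 21.2% of all windows, and 2, EGR1 and EGR2, held a CArG box. EGR2 has more than 1 window, and only that at chr10:62816367-62816616 held either motif. A count by member is thus not the same measure as a share of windows. TGANTCA, the AP-1 element, was in 6.57% of windows and in the windows of 0 of the 8. A match is a description of these letters only. Only exact matches within the 250 bases were read, so a site further upstream or with other letters is not counted. FOSL1 had no entry, and EGR3 was left out of the reading.

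On GRCh38 with GENCODE v29, EGR1 (ENSG00000120738) lies at chr5:138465490-138469315 on the plus strand and overlaps no other annotated gene. JUN (ENSG00000177606) lies at chr1:58780788-58784327 and DUSP1 (ENSG00000120129) at chr5:172768090-172771195, both on the minus strand. Exons of EGR3, JUNB and IER2 overlap those of a gene on the other strand, so reads there could be divided between genes. Among these neighbours HOOK2, beside JUNB, reached at most 11.7 CPM and the others at most 1.63 CPM.

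Library totals ran from 23.9 M to 33.1 M counts with a median of 27.4 M. By their library names the 3 with vehicle form a separate set, those of Soshiho-tang and Yijin-tang another, and those of Okbyeongpung-san and Soyo-san one more, so a contrast with vehicle and a difference between library sets cannot be told apart. The titles also carry batch letters: vehicle, Soshiho-tang, Yijin-tang and replicate 2 of Okbyeongpung-san are in batch E (24 libraries), and replicate 3 of Okbyeongpung-san and all of Soyo-san in batch D (6 libraries, none with vehicle). Levels below are CPM, counts scaled to a common library total with TMM factors. VIM was at 3719 to 5607 CPM, and GJA1 and SLC1A3 were also expressed, but GFAP, S100B, AQP4 and ALDH1L1, which define mature astrocytes, were at or under 0.25 CPM in every library, so 3 of 8 astrocyte markers were at 1 CPM or more throughout. Summed markers lay at 58.7 to 59.7 CPM in vehicle and 43.1 to 63.1 CPM with extracts for neurons (3 of 5 over 1 CPM throughout, RBFOX3 and STMN2 at 0 in some libraries) and at 188 to 212 against 138 to 257 CPM for leukocytes and microglia (3 of 4, AIF1 at 0 in 28 libraries). Endothelial and epithelial markers summed to at most 1.08 and 0.542 CPM.

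Per kb of annotated exon, FOSL1 was the most abundant member in the vehicle libraries, at 163 ± 6.35 CPM per kb (SD, n = 3). It was followed by EGR1 at 48.7 ± 1.92, JUN at 37.5 ± 0.495, JUNB at 29.9 ± 2.22, DUSP1 at 20.8 ± 0.728 and IER2 at 18.0 ± 0.796 CPM per kb. EGR3 at 2.54 ± 0.269, FOS at 1.44 ± 0.194, FOSB at 0.463 ± 0.0504 and EGR2 at 0.261 ± 0.0328 CPM per kb were far lower, and no neighbours in this order had overlapping ranges. FOSL1, the FOS family member that stays high in many proliferating and transformed cells, was thus between 102 and 185 times as abundant per kb as FOS in every library. EGR2 rested on only 7 to 25 reads per library and FOSB on 47 to 133, whereas EGR1 rested on 803 to 3880 and FOSL1 on 5136 to 8213.

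**Figure D1:**
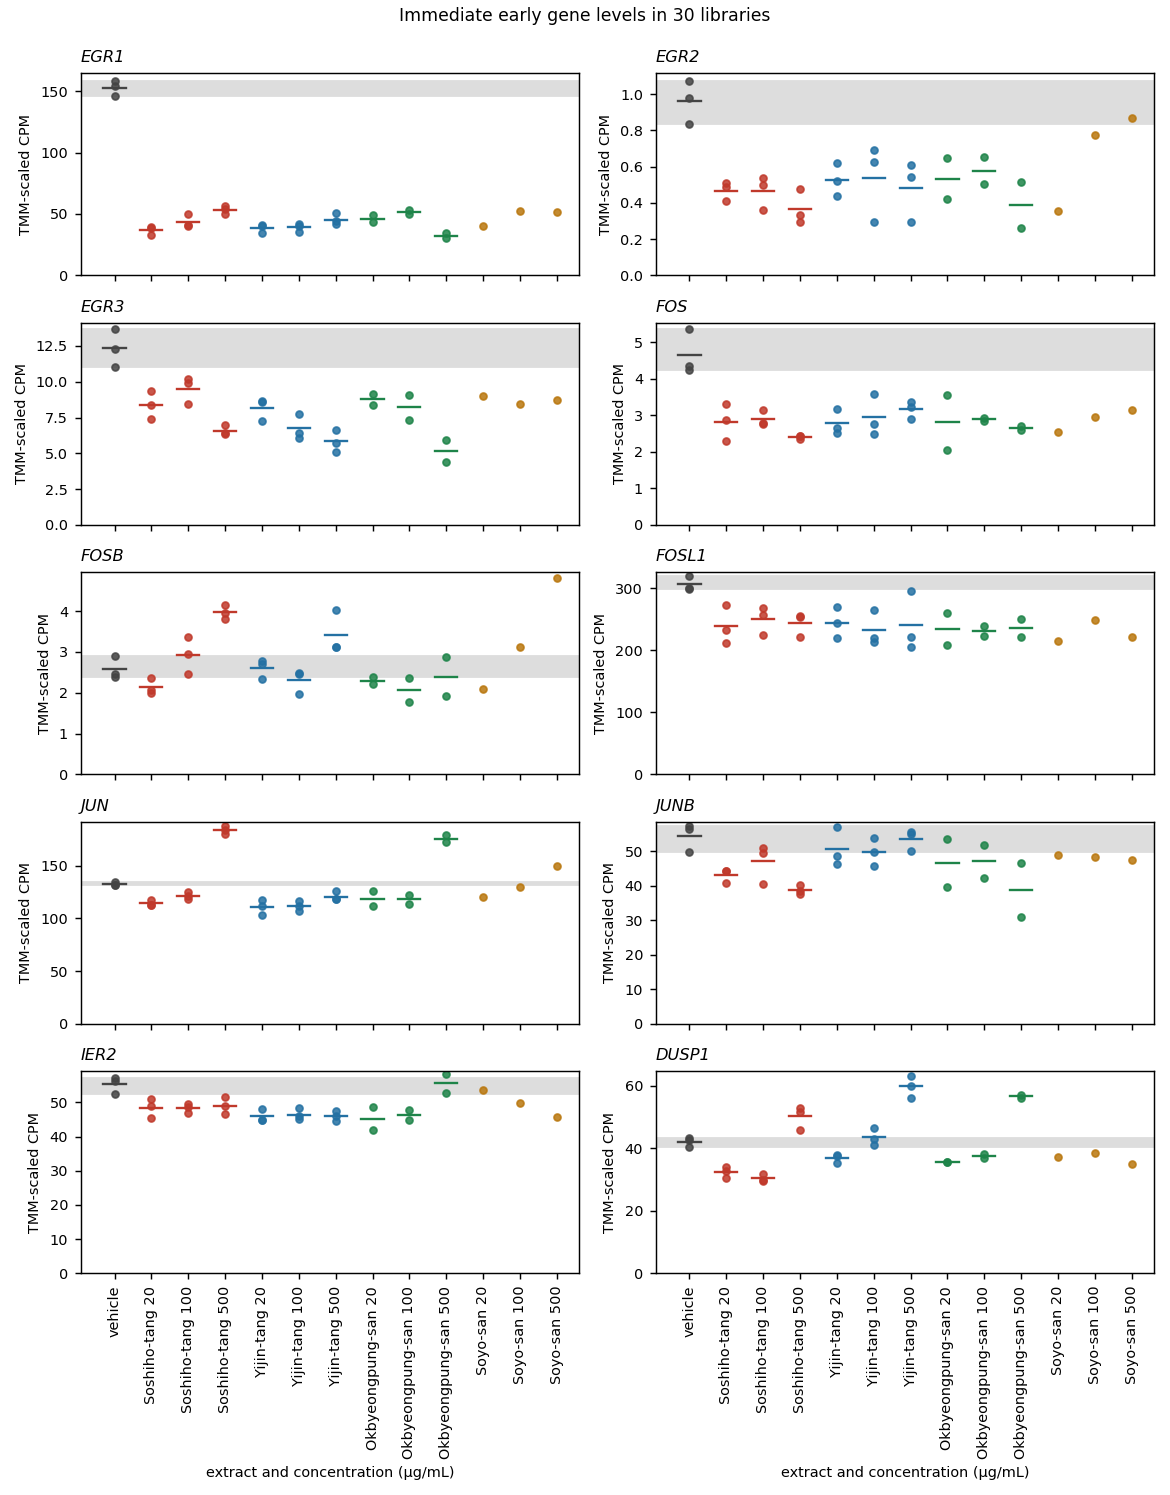
TMM-scaled CPM (linear axes from 0) of each of the 10 genes in each of the 30 libraries, by extract and concentration in µg/mL; points are libraries, short lines the mean of groups with 2 or 3 libraries, and the grey band the range of the 3 vehicle libraries. EGR1 is at 146 to 158 CPM in vehicle and at 30.3 to 56.4 CPM in all 27 extract libraries, while JUN and DUSP1 lie on both sides of the vehicle band.

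EGR1, an early transcription factor of growth and stress responses, was lower than vehicle at every concentration of every extract. Its level was 146, 158 and 154 CPM in the 3 vehicle libraries. With Soshiho-tang it was 38.7, 32.9 and 39.1 CPM at 20 µg/mL, 49.9, 40.4 and 41.0 CPM at 100 µg/mL, and 54.4, 56.4 and 49.9 CPM at 500 µg/mL. With Yijin-tang it was 41.0, 40.1 and 34.3 CPM at 20 µg/mL, 40.1, 35.5 and 41.9 CPM at 100 µg/mL, and 44.0, 41.6 and 50.6 CPM at 500 µg/mL. With both extracts the gap to vehicle was therefore present at the lowest concentration, and no library came near the vehicle range. Okbyeongpung-san gave 43.3 and 48.9 CPM at 20 µg/mL, 49.7 and 53.3 CPM at 100 µg/mL, and 30.3 and 34.3 CPM at 500 µg/mL. Single libraries of Soyo-san held 40.4, 52.7 and 51.6 CPM at 20, 100 and 500 µg/mL. Across extracts and concentrations the 27 extract libraries lay at 30.3 to 56.4 CPM of EGR1. In CPM this spread was far smaller than their distance from vehicle, and on the log2 scale the margin was narrower.

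At 20 µg/mL, the log2 change of EGR1 was -2.07 ± 0.09 with Soshiho-tang (SE, edgeR adjusted p = 1.44e-12), -1.99 ± 0.09 with Yijin-tang (adjusted p = 3e-12) and -1.72 ± 0.09 with Okbyeongpung-san (adjusted p = 1.68e-05). At 500 µg/mL it was -1.52 ± 0.09, -1.76 ± 0.09 and -2.23 ± 0.09 in the same order, each past the threshold of an adjusted p under 0.05. These 3 contrasts share the 3 vehicle libraries. The library set differs as well, as given above. Replicate 3 of Okbyeongpung-san is also in another batch than vehicle, and the main fits held no batch term. In bulk RNA, fewer cells of a type and less RNA per cell cannot be told apart either.

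Among 16769 tested genes with a GENCODE v29 entry, 4 had every extract library at least 2-fold under every vehicle library, and EGR1 was the sole member among them. The second of the 4, singled out after its values were seen, was TUBA1B-AS1, an antisense gene at 160 to 198 CPM in vehicle and at most 2.14 CPM in the extract libraries. Of 2 mitochondrial genes also singled out in this way, MT-ND6, the protein gene on the strand opposite to the others, was at 1100.0 to 1214 CPM in vehicle against 356 to 815 CPM with extracts. MT-ATP8, which shares bases with a neighbour, was at 1107 to 1357 against 279 to 841 CPM. The mitochondrial share of counts was 10.5% to 10.7% in vehicle and 5.68% to 10.6% in the extract libraries. TUBA1B itself, on the strand opposite TUBA1B-AS1, was not set apart, at 2193 to 2285 CPM in vehicle against 1537 to 2399 CPM. Of the 4 genes, 2 have exons that overlap another gene (50%), beside 50.9% of all 16769, and EGR1 and PCBP2P2 have none. The part of counting or of the library set in the EGR1 offset was not tested.

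The other members showed a smaller offset. In all 27 extract libraries EGR3, FOS and FOSL1 as well as EGR1 were below the lowest vehicle library, against 4.08% of 16872 genes that were below in all 27 and 5% that were above in all 27. EGR3, a family member that EGR1-type signals also induce, was at 11.0, 12.3 and 13.7 CPM in vehicle and at 4.37 to 10.2 CPM with extracts. FOS, the founding AP-1 subunit, was at 4.34, 4.24 and 5.37 CPM in vehicle and at 2.06 to 3.58 CPM with extracts. FOSL1 was at 301, 298 and 320.5 CPM in vehicle and at 205 to 295 CPM with extracts. The highest FOSL1 library with an extract, at 295 CPM, was thus just under the lowest with vehicle. This library, Yijin-tang replicate 3 at 500 µg/mL, had a mitochondrial share of counts of 10.6%, within the vehicle range of 10.5% to 10.7%. Replicates 1 and 2 of that group had 205 and 222 CPM of FOSL1 at shares of 6.7% and 7.35%. FOSL1 rose with this share among replicates of every Soshiho-tang and Yijin-tang group, but not in vehicle or with Okbyeongpung-san at 100 µg/mL. The part of this share in the FOSL1 offset was not tested.

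EGR2, which follows EGR1 and EGR3 in the same family, was below the vehicle range in 26 of the 27 extract libraries, with vehicle at 0.834 to 1.07 CPM and the extracts at 0.264 to 0.867 CPM. IER2, a small nuclear early response protein, was below it in 24, with 52.6 to 57.2 CPM in vehicle and 42.0 to 58.4 CPM with extracts. JUNB, an AP-1 subunit that can oppose JUN, was below in 19 and within the range in 8. JUN was below in 21 and above in 6, DUSP1 below in 16 and above in 9, and FOSB below in 10 and above in 10. For JUN, DUSP1 and FOSB the side differed with the concentration and with the extract, as described below.

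With 20 µg/mL against vehicle, 9 of the 10 members were lower with Soshiho-tang and 8 with Yijin-tang, while 10.5% and 9.2% of all 16872 genes tested were called lower in those comparisons. With Okbyeongpung-san the count was 1 of 10, EGR1, against 1.06% of 16643 genes called lower. The median log2 change of the 10 members was -0.38 with Soshiho-tang, -0.30 with Yijin-tang and -0.33 with Okbyeongpung-san, beside medians of -0.0049, -0.0017 and 0.0133 over all genes tested. Okbyeongpung-san, with 2 libraries per concentration and a separate fit of 9 libraries, had similar values. EGR3 was at -0.48 ± 0.15 against -0.57 ± 0.11 with Soshiho-tang, and FOSL1 at -0.38 ± 0.10 against -0.37 ± 0.11. The error was larger for EGR3 but not for FOSL1. With Okbyeongpung-san 7 of 10 members had an unadjusted p under 0.05, beside 21.7% of all genes. DESeq2 called 2 members and a fit of 27 libraries 5, where genes called in all went from 372 to 780 and 2162.

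By role, the log2 change of FOS at 20 µg/mL was -0.74 ± 0.15 with Soshiho-tang (edgeR adjusted p = 0.00116) and -0.75 ± 0.15 with Yijin-tang (adjusted p = 0.00133). For JUN it was -0.23 ± 0.05 and -0.26 ± 0.05 (adjusted p = 0.00118 and 0.000455), and for IER2 -0.20 ± 0.05 and -0.27 ± 0.05 (adjusted p = 0.0103 and 0.00149). JUNB fell by 0.35 ± 0.08 with Soshiho-tang (adjusted p = 0.00456), while with Yijin-tang its change was -0.11 ± 0.08 (adjusted p = 0.391). FOSB did not pass with either extract, at -0.28 ± 0.15 and 0.02 ± 0.15. DUSP1 fell by 0.39 ± 0.06 with Soshiho-tang (adjusted p = 0.000293) and by 0.19 ± 0.06 with Yijin-tang (adjusted p = 0.0433). The Yijin-tang calls of DUSP1 (adjusted p 0.0593 to 0.166) and EGR2 (0.0563 to 0.154) were lost whichever 1 of the 6 libraries was left out, and that of FOSL1 was lost without any one of them but replicate 2 at 20 µg/mL (0.0769 to 0.186). With Soshiho-tang EGR2 lost its call without vehicle replicate 3 or replicate 1 at 20 µg/mL (adjusted p = 0.0618 and 0.062). FOSL1 lost it without vehicle replicate 3 or replicate 1 or 2 at 20 µg/mL (0.0726 to 0.112), and IER2 without vehicle replicate 1 or replicate 3 at 20 µg/mL (0.0546 and 0.0681).

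With 100 µg/mL against vehicle, 7 of 10 members were lower with Soshiho-tang and 7 with Yijin-tang, beside 10.2% and 12.5% of all genes called lower. With Okbyeongpung-san 1 was lower, EGR1, beside 1.62%. In the Soshiho-tang comparison the count fell to 3 of 10 without replicate 2 at 100 µg/mL. The calls it lost were EGR2 (adjusted p = 0.0825), EGR3 (0.0926), JUN (0.114) and IER2 (0.0533). Leaving out any 1 vehicle library, or replicate 1 at 100 µg/mL, also ended between 1 and 3 of these (0.0599 to 0.0992). With Yijin-tang EGR2 and FOSL1 lost their calls without replicate 1 at 100 µg/mL (0.212 and 0.0535), and EGR2 without vehicle replicate 2 or 3 (0.0853 and 0.121).

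**Figure D2:**
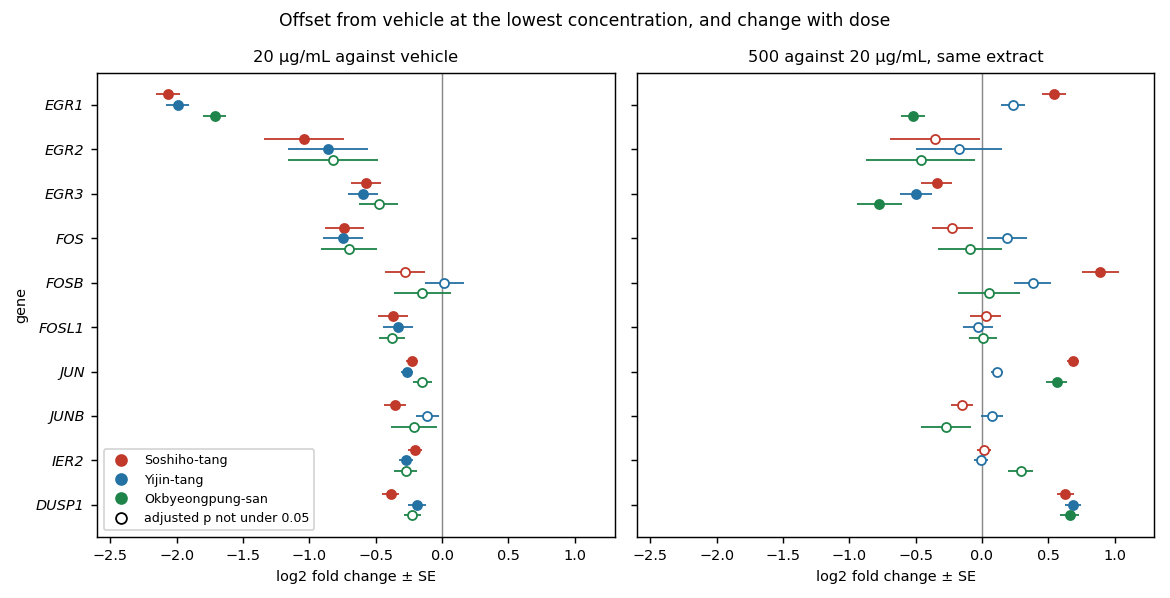
Log2 fold change with its standard error (edgeR) of each member for 20 µg/mL against vehicle (left) and for 500 against 20 µg/mL of the same extract (right); colours are extracts, filled points have an adjusted p under 0.05. On the left EGR1 stands between -2.07 and -1.72; on the right DUSP1 is above 0 with all 3 extracts, JUN is called with 2, and EGR1 is called higher with Soshiho-tang and lower with Okbyeongpung-san.

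Comparing 500 with 20 µg/mL of one extract leaves the vehicle libraries out of the contrast and stays within a library set. In this comparison DUSP1 was higher with all 3 extracts tested, JUN with Soshiho-tang and Okbyeongpung-san, and FOSB with Soshiho-tang. EGR3 was lower with all 3, and EGR1 moved in opposite directions with Soshiho-tang and Okbyeongpung-san. FOS, FOSL1, EGR2, JUNB and IER2 passed the test with no extract in the main fits. In a fit of 27 libraries IER2 was called higher with Okbyeongpung-san (0.30, edgeR adjusted p = 0.00823). With only the compared groups fitted, JUNB was called lower with Soshiho-tang (-0.16, edgeR adjusted p = 0.04). The members called numbered 4 higher and 1 lower with Soshiho-tang, beside 14.6% and 14.2% of all genes. They were 1 higher and 1 lower with Yijin-tang, beside 2.7% and 2.94%, and 2 higher and 2 lower with Okbyeongpung-san, beside 5.21% and 5.1%.

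DUSP1 was at 34.0, 32.8 and 30.4 CPM with 20 µg/mL of Soshiho-tang and at 45.9, 51.5 and 53.0 CPM with 500 µg/mL. The Yijin-tang libraries held 38.0, 35.4 and 37.5 CPM at 20 µg/mL and 60.0, 63.0 and 56.2 CPM at 500 µg/mL. Those of Okbyeongpung-san held 35.7 and 35.6 CPM at 20 µg/mL and 56.1 and 57.0 CPM at 500 µg/mL. The groups did not overlap within any of the 3 extracts, and the vehicle libraries, at 42.5, 43.2 and 40.3 CPM, lay between them. Every library was higher at 500 than at 20 µg/mL for 22.2%, 11.6% and 25.2% of all genes too, in the same order. DUSP1 thus passed from below to above the vehicle level between 20 and 500 µg/mL. Its increase was 0.63 ± 0.06 (edgeR adjusted p = 1.07e-07), 0.69 ± 0.06 (adjusted p = 6.19e-07) and 0.66 ± 0.07 (adjusted p = 0.000473) with Soshiho-tang, Yijin-tang and Okbyeongpung-san. At 100 µg/mL DUSP1 was at 31.8, 29.8 and 29.4 CPM with Soshiho-tang and at 46.3, 41.0 and 43.1 CPM with Yijin-tang. The differences in the change between extracts were -0.06 ± 0.09 (Soshiho-tang minus Yijin-tang) and -0.04 ± 0.10 (Soshiho-tang minus Okbyeongpung-san). In the single Soyo-san libraries DUSP1 was at 37.0, 38.5 and 34.9 CPM at the 3 rising concentrations, with no higher level at the top one.

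JUN, the main transactivating partner of FOS in AP-1, was at 113, 117 and 113 CPM with 20 µg/mL of Soshiho-tang and at 180.0, 188 and 183 CPM with 500 µg/mL. With Okbyeongpung-san it was at 111 and 126 CPM, and at 179 and 172 CPM. With Yijin-tang it was at 103, 112 and 117 CPM at 20 µg/mL and at 118, 118 and 126 CPM at 500 µg/mL. At 500 µg/mL, JUN was therefore above the vehicle libraries (135, 132 and 131 CPM) with Soshiho-tang and Okbyeongpung-san and below them with Yijin-tang. The change from 20 to 500 µg/mL was 0.69 ± 0.05 (edgeR adjusted p = 1.44e-10) with Soshiho-tang and 0.56 ± 0.08 (adjusted p = 0.00224) with Okbyeongpung-san. With Yijin-tang it was 0.12 ± 0.05 (adjusted p = 0.157). The change was larger with Soshiho-tang than with Yijin-tang by 0.57 ± 0.06 (adjusted p = 1.45e-06), 1 of 10 members called in that comparison of changes beside 13.6% of all genes. Soyo-san libraries held 121, 129 and 149.6 CPM of JUN at 20, 100 and 500 µg/mL.

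FOSB, a FOS family subunit known for its lasting splice form in neurons, was at 2.00, 2.07 and 2.35 CPM with 20 µg/mL of Soshiho-tang, at 2.46 to 3.38 CPM with 100 µg/mL and at 3.8, 3.96 and 4.15 CPM with 500 µg/mL. Its 3 libraries at 500 µg/mL were above every library at 20 µg/mL and above the vehicle range of 2.38 to 2.89 CPM. Of all genes, 22.2% and 29.7% were higher in every library in these comparisons. FOSB rose by 0.89 ± 0.14 from 20 to 500 µg/mL (edgeR adjusted p = 3.64e-05). With Yijin-tang the change was 0.38 ± 0.14 (adjusted p = 0.122) and with Okbyeongpung-san 0.05 ± 0.23 (adjusted p = 0.912). The single Soyo-san library at 500 µg/mL held the highest FOSB level of all 30 libraries, 4.81 CPM, against 2.09 CPM at 20 µg/mL.

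EGR1 rose from 20 to 500 µg/mL by 0.54 ± 0.09 with Soshiho-tang (edgeR adjusted p = 7.25e-05), which left it at 53.6 ± 3.35 CPM (SD, n = 3), still far under vehicle at 153 ± 6.01 CPM. With Okbyeongpung-san it fell by 0.52 ± 0.09 (adjusted p = 0.00696) to 32.3 ± 2.86 CPM (SD, n = 2), and with Yijin-tang the change was 0.23 ± 0.09 (adjusted p = 0.151). The change with Soshiho-tang minus that with Yijin-tang was 0.31 ± 0.13 (adjusted p = 0.126, and 0.0471 without Yijin-tang replicate 3 at 500 µg/mL). The difference in the change was 1.05 ± 0.15 between Soshiho-tang and Okbyeongpung-san (adjusted p = 4.996e-05) and 0.75 ± 0.15 between Yijin-tang and Okbyeongpung-san (adjusted p = 0.00117). Both come from a fit of 27 libraries chosen after the data were seen. These fits called 2 of 10 members in each comparison, beside 7.43% and 10.7% of 17396 genes. The other calls were FOSB, at 0.83 ± 0.25 (adjusted p = 0.0425) for Soshiho-tang minus Okbyeongpung-san, and JUN, at -0.45 ± 0.08 (adjusted p = 0.000562) for Yijin-tang minus Okbyeongpung-san. The FOSB call was lost in 8 of the 10 fits that left out 1 library, the exceptions being Okbyeongpung-san replicate 3 at 500 µg/mL and Soshiho-tang replicate 3 at 20 µg/mL (adjusted p 0.0562 to 0.234 in the 8).

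EGR3 fell from 20 to 500 µg/mL by 0.34 ± 0.12 with Soshiho-tang (edgeR adjusted p = 0.0311), by 0.50 ± 0.12 with Yijin-tang (adjusted p = 0.0155) and by 0.77 ± 0.17 with Okbyeongpung-san (adjusted p = 0.0177). Its levels were 7.43 to 9.34, 7.24 to 8.67 and 8.39 to 9.16 CPM at 20 µg/mL, and 6.36 to 6.96, 5.12 to 6.65 and 4.37 to 5.92 CPM at 500 µg/mL. The groups did not overlap in any of the 3 extracts, while 21.2%, 10.3% and 24.6% of all genes were lower in every library too. The calls rest on few libraries: EGR3 lost its call with Soshiho-tang without replicate 1 or 3 at either concentration (adjusted p 0.071 to 0.147) and with Yijin-tang without replicate 1 or 2 at either (0.0564 to 0.0938). With Okbyeongpung-san it lost the call without replicate 2 or 3 at 20 µg/mL or replicate 2 at 500 µg/mL (0.0608 to 0.113). EGR1 and EGR3, from one family, thus had calls in opposite directions with Soshiho-tang and in the same direction with Okbyeongpung-san.

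The replicates of Okbyeongpung-san are divided between batches. Within batches the log2 ratio of 500 to 20 µg/mL was -0.51 (D) and -0.52 (E) for EGR1, 0.46 and 0.68 for JUN, 0.68 and 0.65 for DUSP1, and -0.63 and -0.94 for EGR3. All 4 called members had the same direction in both batches, but the ratios use the libraries that gave the calls and are no separate test. FOS, which was not called, was at -0.38 in D and 0.34 in E.

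From 20 to 100 µg/mL, 0 of 10 members passed edgeR's test with Soshiho-tang and 0 of 10 with Yijin-tang, where 0.0711% and 0.00593% of all genes were called. DESeq2 called 0 in both, and 2 members in each had an unadjusted p under 0.05, as had 3.66% of all genes in each. These were EGR1 (0.25 ± 0.09) and FOSB (0.46 ± 0.14) with Soshiho-tang, and DUSP1 (0.23 ± 0.06) and EGR3 (-0.28 ± 0.12) with Yijin-tang. EGR1 with Soshiho-tang passed once the filter on low counts was dropped (edgeR adjusted p = 0.0467).

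At 500 µg/mL against vehicle, 3 members were higher and 7 lower with Soshiho-tang, in a comparison that called 43.9% of all genes. With Yijin-tang 2 were higher and 7 lower (31.3% of all genes called), and with Okbyeongpung-san 2 were higher and 5 lower (24.7%). The higher members were JUN, DUSP1 and FOSB with Soshiho-tang, DUSP1 and FOSB with Yijin-tang, and JUN and DUSP1 with Okbyeongpung-san. DUSP1 was higher by 0.24 ± 0.06, 0.50 ± 0.06 and 0.44 ± 0.06 with Soshiho-tang, Yijin-tang and Okbyeongpung-san. JUN was higher by 0.46 ± 0.05 with Soshiho-tang and by 0.41 ± 0.07 with Okbyeongpung-san, and lower by 0.15 ± 0.05 with Yijin-tang (edgeR adjusted p = 0.0172), a call lost without vehicle replicate 1 or Yijin-tang replicate 1 or 2 at 500 µg/mL (0.055 to 0.0657). The FOSB call with Yijin-tang (0.40 ± 0.14, adjusted p = 0.0361) was lost without replicate 3 at 500 µg/mL (adjusted p = 0.179) and without vehicle replicate 1 (0.117) or 3 (0.108). It was also lost with DESeq2 (0.0917), without the filter on low counts (0.0817) and with only the groups compared in the fit (0.0808). With Okbyeongpung-san, leaving out vehicle replicate 3 or replicate 2 at 500 µg/mL brought the count from 7 to 4 members, as EGR2, FOS and FOSL1 lost their calls (adjusted p 0.0657 to 0.178). With Soshiho-tang FOSL1 lost its call without vehicle replicate 3 or replicate 3 at 500 µg/mL (0.0625 and 0.0845), and IER2 without replicate 1 at 500 µg/mL (0.0544). With Yijin-tang FOSL1 lost it without vehicle replicate 3 or replicate 1 or 2 at 500 µg/mL (0.0704 to 0.115), and EGR2 without vehicle replicate 3 or replicate 1 at 500 µg/mL (0.0508 and 0.0835).

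Between extracts at 500 µg/mL, Soshiho-tang differed from Yijin-tang in 3 of 10 members, beside 25.2% of all genes called. JUN was higher with Soshiho-tang by 0.60 ± 0.05 (edgeR adjusted p = 9.87e-10), JUNB lower by 0.47 ± 0.08 (adjusted p = 0.00019) and DUSP1 lower by 0.26 ± 0.06 (adjusted p = 0.00337). JUNB was at 37.4 to 40.3 CPM with Soshiho-tang and at 49.9 to 55.4 CPM with Yijin-tang, beside 49.8 to 57.2 CPM in vehicle. At this concentration JUN and JUNB, partners in the same AP-1 family, therefore stood on opposite sides of vehicle with Soshiho-tang. EGR1 differed by 0.24 ± 0.09 (adjusted p = 0.0539, and 0.0168 without Yijin-tang replicate 3).

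**Figure D3:**
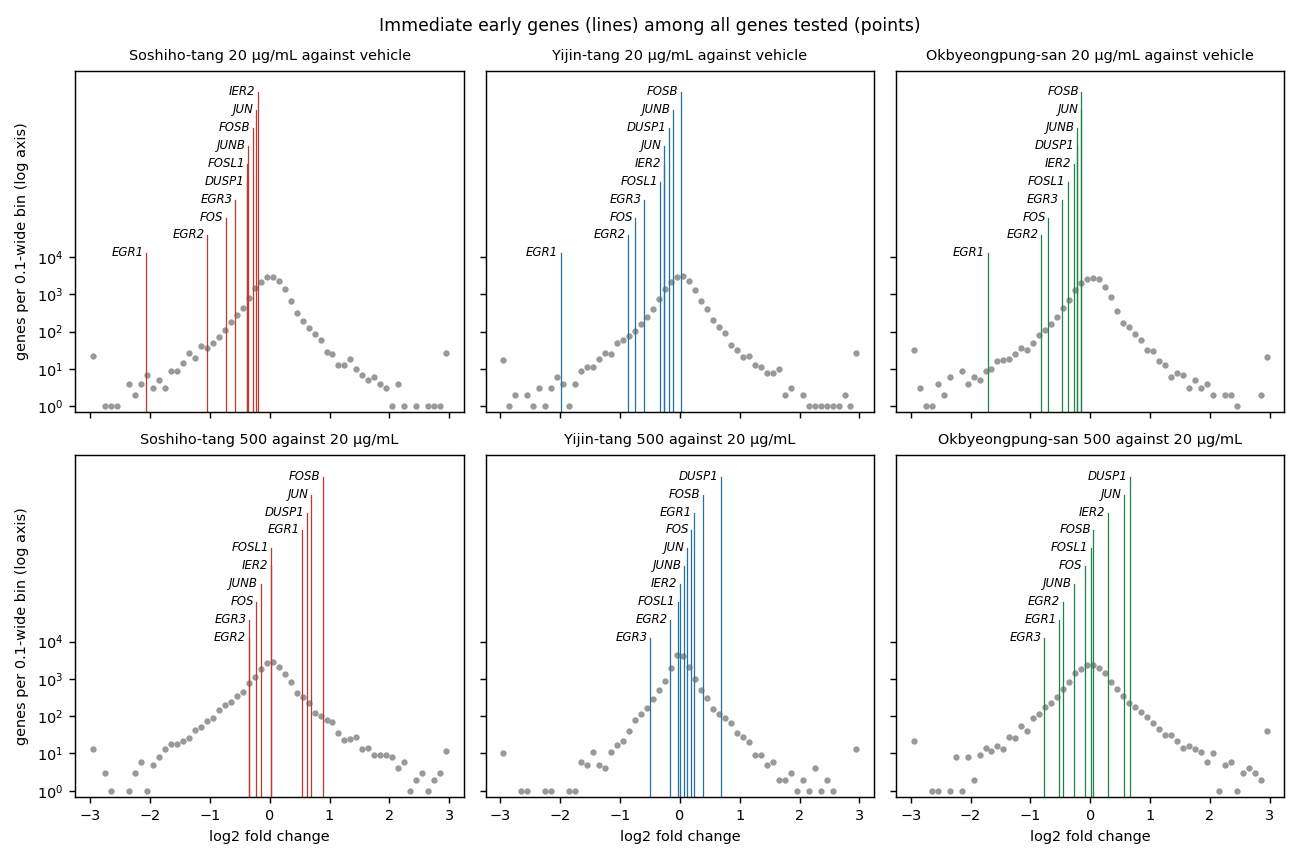
Points give the number of tested genes per 0.1-wide bin of log2 fold change (log axis; the outermost bins also hold all values beyond 3 in size) and lines mark the 10 members, for 20 µg/mL against vehicle (top) and 500 against 20 µg/mL (bottom). EGR1 lies in the left tail of all 3 upper panels, and in the lower panels the members lie on both sides of 0.

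Soyo-san, with 1 library per concentration, allows no test, and its ratios to vehicle cross batches D and E, which cannot be told apart from the extract here. EGR1 was the only member at least 2-fold under the vehicle mean on the log2(CPM + 1) scale, at -1.89, -1.52 and -1.55 with 20, 100 and 500 µg/mL. EGR2, at 0.962 CPM in vehicle, could not be 2-fold lower on that scale at any level. It was at 0.353 CPM with 20 µg/mL. Genes at least 2-fold lower made up 0.273%, 0.284% and 0.35% of the 16872 in those comparisons. Genes under 1 CPM in vehicle could not be among them. FOSB was at -0.21, 0.21 and 0.70 in the same order, and JUN at -0.14, -0.04 and 0.17. FOSL1 was at -0.52, -0.30 and -0.46. These single libraries show a low EGR1 at each concentration. EGR1, EGR2, FOS, FOSB, FOSL1 and JUN were higher at 500 than at 20 µg/mL, and EGR3, JUNB, IER2 and DUSP1 were lower.

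Other genes of the pathway were read from lists. For 500 against 20 µg/mL their counts stand beside shares of all genes called higher and lower of 14.6% and 14.2% with Soshiho-tang, 5.21% and 5.1% with Okbyeongpung-san, and 2.7% and 2.94% with Yijin-tang. Of 32 further immediate early genes tested, 12 rose and 6 fell from 20 to 500 µg/mL of Soshiho-tang, with a median of 0.22 beside 0.01 over all genes. PPP1R15A, a stress-induced partner of protein phosphatase 1, rose by 1.23 ± 0.05, ATF3, a stress-induced AP-1 relative, by 1.54 ± 0.15, and KLF4, a zinc finger factor, by 1.05 ± 0.11. CCN2, a matrix growth factor, fell by 0.76 ± 0.07. With Okbyeongpung-san 5 rose and 3 fell, among them ATF3 (0.83 ± 0.19), MAFF, a small MAF protein (1.05 ± 0.15), PPP1R15A (0.77 ± 0.15) and ARC, a synaptic early gene (1.82 ± 0.47, at 0.321 CPM with 20 and 1.17 CPM with 500 µg/mL). With Yijin-tang 1 rose and 1 fell: BTG2, an antiproliferative early gene, by 0.85 ± 0.22 and CCN2 by 0.44 ± 0.07. CCN2 fell with Okbyeongpung-san too, by 0.30 ± 0.08, so its direction was shared by the 3 extracts. ATF3 and PPP1R15A had calls with the same 2 extracts as JUN.

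Feedback genes of the ERK pathway rose in 10 and fell in 2 of 18 cases with Soshiho-tang (median 0.24), rose in 8 of 18 with Okbyeongpung-san (median 0.20), and rose in 1 of 18 with Yijin-tang (median 0.00). The shares of all genes called higher were 14.6%, 5.21% and 2.7%, and the Yijin-tang count is near that background. The MAP kinase phosphatases DUSP5 and DUSP6 rose by 1.21 ± 0.08 and 0.82 ± 0.07 with Soshiho-tang and by 0.82 ± 0.12 and 0.58 ± 0.09 with Okbyeongpung-san. DUSP6 was the call with Yijin-tang, at 0.26 ± 0.08. PHLDA1, a pleckstrin homology protein induced by growth factors, rose by 0.92 ± 0.05 and 0.75 ± 0.08 with Soshiho-tang and Okbyeongpung-san, and SPRY2, an inhibitor of receptor kinase signalling, by 0.55 ± 0.06 and 0.66 ± 0.09. DUSP2 fell by 1.43 ± 0.33 with Soshiho-tang, from 0.997 to 0.366 CPM.

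Of 23 upstream factors and kinases, 5 rose and 5 fell with Soshiho-tang, 2 and 2 with Okbyeongpung-san, and 1 and 1 with Yijin-tang. All genes divided about evenly too (14.6% and 14.2%, 5.21% and 5.1%, 2.7% and 2.94%), so these counts say little about the list. CREM, a CREB relative, rose with each, in that order (0.36 ± 0.06, 0.64 ± 0.09 and 0.23 ± 0.06), and MRTFA, a coactivator of serum response factor, fell with Soshiho-tang (by 0.49 ± 0.07) and Okbyeongpung-san (by 0.52 ± 0.08). The log2 change of SRF itself was -0.20 ± 0.05, -0.30 ± 0.07 and -0.19 ± 0.05 with Soshiho-tang, Okbyeongpung-san and Yijin-tang, each called. Dimer and co-repressor partners of AP-1 and EGR proteins rose in 3 and fell in 1 of 10 cases with Soshiho-tang and rose in 2 and fell in 1 with Okbyeongpung-san, beside the same shares of all genes. MAFG, a small MAF protein, rose with both (0.64 ± 0.07 and 0.93 ± 0.08). With Yijin-tang the 10 lay between -0.16 and 0.13, with 0 called by edgeR and 0 at an unadjusted p under 0.05; DESeq2 was not run on the lists. NAB1, a co-repressor of EGR proteins, fell by 0.27 ± 0.08 with Soshiho-tang.

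Of 16 known targets of AP-1 or EGR proteins, 6 rose and 6 fell with Soshiho-tang (median -0.04), 5 rose with Okbyeongpung-san (median 0.36), and 2 rose and 1 fell with Yijin-tang (median -0.06). Beside them 28.9%, 10.3% and 5.64% of all genes were called in either direction. LIF, a cytokine, rose by 1.35 ± 0.08 with Soshiho-tang, where PDGFB, a growth factor, fell by 1.14 ± 0.41, from 0.718 to 0.323 CPM. IL11, another cytokine of that family, rose from 53.7 to 133 CPM with Okbyeongpung-san and from 76.0 to 137 CPM with Yijin-tang, and fell from 64.9 to 45.4 CPM with Soshiho-tang. MMP1, a collagenase, and PLAUR, the urokinase receptor, rose by 0.63 ± 0.08 and 0.71 ± 0.11 with Okbyeongpung-san and by 0.39 ± 0.07 and 0.38 ± 0.08 with Soshiho-tang. The target list thus held calls in both directions with Soshiho-tang and in 1 direction with Okbyeongpung-san; this difference was not tested.

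**Figure D4:**
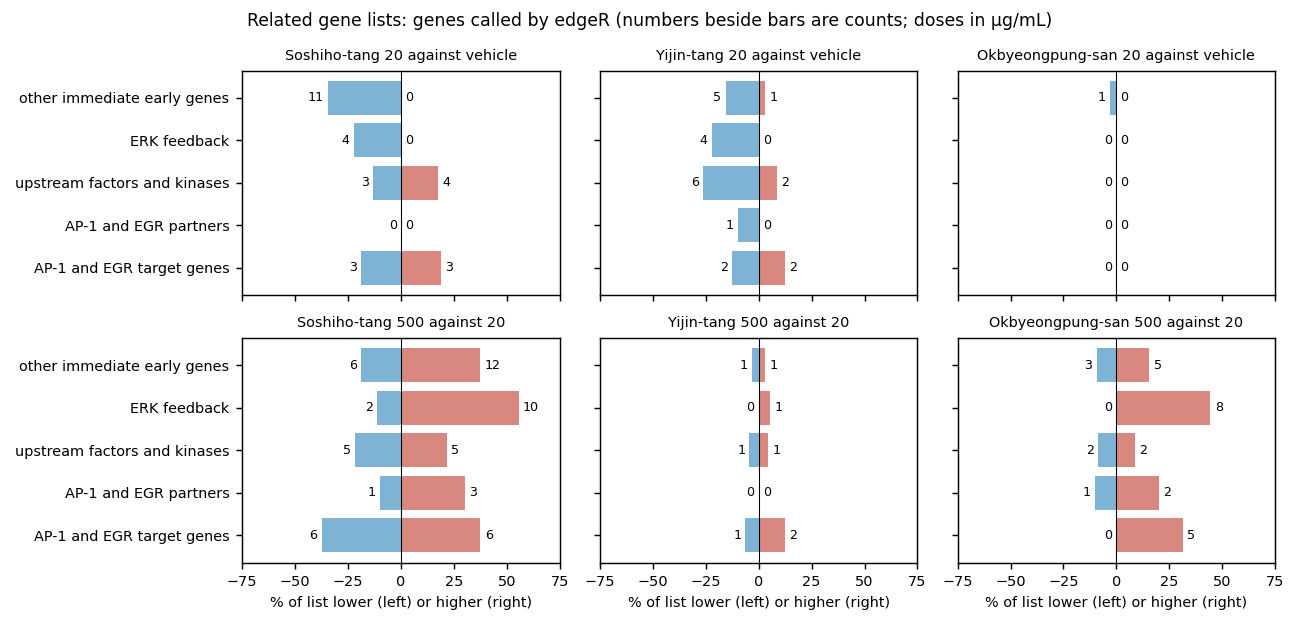
Percent of tested genes of each related list called lower (bars to the left) or higher (bars to the right) by edgeR at an adjusted p under 0.05, for 20 µg/mL against vehicle (top) and 500 against 20 µg/mL (bottom); numbers beside the bars are counts. Of 18 ERK feedback genes 10 are higher at 500 µg/mL with Soshiho-tang, 8 with Okbyeongpung-san and 1 with Yijin-tang.

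Against vehicle at 20 µg/mL, 11 of the 32 further immediate early genes were lower with Soshiho-tang, 5 were lower and 1 higher with Yijin-tang, and 1 was lower with Okbyeongpung-san. The shares of all genes called lower were 10.5%, 9.2% and 1.06%, and those called higher with Soshiho-tang and Yijin-tang 11.3% and 10.6%. The one called with Okbyeongpung-san, KLF6, a zinc finger factor, was at 87.1, 94.4 and 83.9 CPM with Okbyeongpung-san, Soshiho-tang and Yijin-tang, against 125 CPM in vehicle, and was called in all 3. From 20 to 500 µg/mL it rose by 0.63 ± 0.06 with Soshiho-tang and by 0.40 ± 0.07 with Okbyeongpung-san. The orphan nuclear receptors NR4A3 (-0.97 ± 0.22 and -0.81 ± 0.22) and NR4A1 (-0.56 ± 0.10 and -0.30 ± 0.10) were lower with Soshiho-tang and Yijin-tang. ERK feedback genes were lower in 4 of 18 cases with each of these extracts, DUSP5 at -0.38 ± 0.08 and -0.48 ± 0.09. Upstream factors were higher in 4 and lower in 3 of 23 cases with Soshiho-tang and higher in 2 and lower in 6 with Yijin-tang; the 3 lower and the 2 higher are near the shares over all genes. ELK1, a ternary complex partner of serum response factor, was at -0.34 ± 0.04 and -0.23 ± 0.04, both called. Of the 16 targets 3 were higher and 3 lower with Soshiho-tang and 2 and 2 with Yijin-tang, the coagulation factor gene F3 being higher with both (0.31 ± 0.04 and 0.38 ± 0.04), and the target counts with Yijin-tang are near those shares. Of the 10 partners ATF7 was lower with Yijin-tang, by 0.29 ± 0.10. The offset of the further early genes was thus smaller than that of EGR1 in each gene named.

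The genes whose levels followed each member most closely over the 30 libraries are given as a description, since libraries of a group share their treatment and set. JUN was closest to PHLDA1 (r = 0.947) and to PLIN2, a lipid droplet protein (r = 0.941), and kept r of 0.956 and 0.962 over the 27 extract libraries. DUSP1 was closest to INHBA, an activin subunit (0.843, and 0.928 over the 27), and JUNB to IFITM1, an interferon-induced membrane protein (0.908 and 0.905). EGR3 was closest to NCOA5 (0.883 and 0.831), FOSL1 to PPP1R18 (0.882 and 0.802) and IER2 to COL18A1 (0.829 and 0.755). For EGR1 the 5 closest were TUBA1B-AS1 (0.919), BCORL1 (0.903), NR1D1 (0.888), BRD3 (0.87) and RIPOR1 (0.861). Over the 27 extract libraries these came to 0.0678, 0.55, 0.415, 0.578 and 0.652, so the likeness to EGR1 rested largely on the 3 vehicle libraries.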

How the data were processed

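Messenger RNA libraries were made with a directional kit and read as paired ends, per the labels' protocols. The authors deposited estimated counts for Ensembl genes. For these estimated counts the authors ran, per the submitters' processing notes, RSEM 1.3.3, STAR 2.7.3a, Trim Galore 0.6.5 and FastQC 0.11.9, on build hg38 (GRCh38). Annotation release and strand setting: not given in the sources used here. RSEM divides reads that match several genes: 9.24% to 10.7% of values per library were not whole, but those of the members were, except JUNB in 4 and IER2 in 16 libraries. Values were rounded to whole counts. Symbols matched 41209 of 60675 entries. Counts at these depths cover sampling error only.

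Genes were tested with edgeR 4.0.16 (quasi-likelihood F test, TMM scaling, filterByExpr with a minimum count of 10 and total of 15, Benjamini-Hochberg over all genes, called under 0.05) in R 4.3.3. A fit of 21 libraries held vehicle, Soshiho-tang and Yijin-tang, and a fit of 9 held vehicle and Okbyeongpung-san. A fit of 27, added after the data were seen, tested differences in dose change that involve Okbyeongpung-san. Soyo-san was described with a pseudocount of 1 CPM. The code was tested on simulated data. Alternatives were DESeq2 1.42.0, its size factors, no filter, fewer or more libraries, mitochondrial genes left out, a replicate block and leaving out each library. Among 24 pairs of libraries of a group, chi-square per degree of freedom was 3.21 to 39.5, so none looked like repeated deposits of 1 library.

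The 10 members and the lists were chosen with earlier results of these data known. Named genes are all members, up to 4 called genes per list with the largest changes (those described are among them, and a gene so named is also given in other comparisons that called it), and the genes with the highest correlation of log2(CPM + 1) to a member of at least 5 CPM on average (5 for EGR1, 2 for others, of which the first or both are given).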

Additional observations from a re-analysis of the deposited data

Results flagged for a closer look

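Extracts differed in the change from 20 to 500 µg/mL for 3 members, by edgeR tests of the difference itself. JUN changed more with Soshiho-tang than with Yijin-tang, by 0.57 ± 0.06 on the log2 scale (adjusted p = 1.45e-06), and less with Yijin-tang than with Okbyeongpung-san, at -0.45 ± 0.08 (adjusted p = 0.000562). EGR1 changed upwards with Soshiho-tang and downwards with Okbyeongpung-san, a difference of 1.05 ± 0.15 (adjusted p = 4.996e-05), and the difference between Yijin-tang and Okbyeongpung-san was 0.75 ± 0.15 (adjusted p = 0.00117). FOSB differed between Soshiho-tang and Okbyeongpung-san by 0.83 ± 0.25 (adjusted p = 0.0425), a call that was lost in 8 of 10 fits without 1 library (0.0562 to 0.234), with DESeq2 (0.073) and without the filter on low counts (0.0635). By library name Okbyeongpung-san belongs to another set than Soshiho-tang and Yijin-tang; the part of the set in these differences was not tested.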

How the results depend on the processing

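Over all settings and members, 2128 of 2278 values counted as unchanged, 96 lost and 50 gained a call, and 0 called values reversed. Unchanged means the same side of the threshold, and the 2128 include 87 uncalled values that changed sign. Soyo-san has no threshold, so there it means a shift within the SD of the vehicle libraries, which 4 further values exceeded. The EGR1 calls against vehicle, the EGR1 and JUN dose calls with Soshiho-tang and Okbyeongpung-san, and the DUSP1 dose calls kept their side under every alternative run. Against vehicle, DESeq2 called 3 members with 100 and 2 with 20 µg/mL of Okbyeongpung-san, and 1 for Soshiho-tang minus Okbyeongpung-san. Without a filter the counts were 4 at 100 and 4 at 20 µg/mL of Okbyeongpung-san, 1 for Soshiho-tang 100 against 20, 2 for Soshiho-tang minus Yijin-tang and 1 for Soshiho-tang minus Okbyeongpung-san. DESeq2 size factors gave 2, mitochondrial genes left out gave 2 and the fit of 27 gave 6 at 100 µg/mL of Okbyeongpung-san, the last giving 5 at 20. With only the compared groups fitted, 1 was called for Yijin-tang 500 against 20 and 5 between Soshiho-tang and Yijin-tang at 500. A pseudocount of 0.1 CPM put 2 members at least 2-fold lower with 20 µg/mL of Soyo-san. The cause of these shifts was not tested.

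Leaving out 1 library, counts of members were 9 to 10, 3 to 7 and 7 to 9 for Soshiho-tang at 500, 100 and 20 against vehicle, 6 to 9, 5 to 7 and 5 to 6 for Yijin-tang, and 4 to 7, 1 to 1 and 1 to 1 for Okbyeongpung-san. For 500 against 20 they were 4 to 5, 1 to 2 and 3 to 4, while Soshiho-tang compared with Yijin-tang (500 µg/mL) gave 3 to 4. Differences in change gave 1 to 3 (Soshiho-tang minus Yijin-tang), 1 to 3 (minus Okbyeongpung-san) and 2 to 4 (Yijin-tang minus Okbyeongpung-san). Where a group kept 1 library, that library was assumed to vary like the other groups.

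Genes called also moved. For Okbyeongpung-san against vehicle at 100 µg/mL, 609 genes became 969 with DESeq2, 1727 unfiltered, 2494 in the fit of 27 and 12 to 29 without 1 library; at 20 µg/mL 372 became 780, 1442, 2162 and 9 to 26. For 500 against 20 of Okbyeongpung-san 1716 became 2604 unfiltered, 3082 in the fit of 27 and 630 to 1966 without 1 library. Yijin-tang 500 against 20 went from 951 to 308 with only its groups fitted and to between 505 and 1057 without 1 library. Without 1 library, genes called against vehicle went from 4113 to between 2228 and 3869 (Okbyeongpung-san 500), from 3550 to between 2323 and 2796 (Soshiho-tang 100) and from 3338 to between 2081 and 2822 (Yijin-tang 20), and those for Soshiho-tang minus Okbyeongpung-san and Yijin-tang minus Okbyeongpung-san from 1292 to between 801 and 1786 and from 1862 to between 1148 and 2087. For 100 against 20, Soshiho-tang went from 12 to 101 unfiltered, 3 with its groups only and 3 to 7 without 1 library, and Yijin-tang from 1 to 67 unfiltered, 8 with DESeq2 and 0 with its groups only.

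The main fits did not pair libraries by replicate number. Of 63 same-numbered pairs, 23 had a correlation of deviations over 0.1 (range -0.44 to 0.69), and 10 of 21 libraries correlated best with their own number. No level expected by chance was worked out, so these values do not settle whether the numbers pair the libraries. With the replicate block, FOS was called between Soshiho-tang and Yijin-tang at 500 (-0.40, adjusted p = 0.0375), and genes called for Okbyeongpung-san against vehicle were 52 at 100 and 40 at 20 µg/mL; no other member call changed.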
